A study of Mus musculus with 38 samples.

Results

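The genes described here are the 38 mouse genes of the 4 Hox clusters that carry a cluster letter and a paralogue number, taken by name out of 29267 genes in each of 38 RNA-seq libraries. They comprise 10 genes of HoxA, 10 of HoxB, 9 of HoxC and 9 of HoxD. By paralogue position they were divided into 7 anterior members (positions 1 to 3), 15 central members (4 to 8) and 16 posterior members (9 to 13). The rule went by name and used no measured value, but the members were chosen with earlier results of these data known.

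The study followed mouse pluripotent cells between the naive state, modelled by embryonic stem cells (ESCs), and the primed state, modelled by epiblast stem cells (EpiSCs), and asked what c-Jun does in that exchange. ESC (n = 5) stood for naive cells kept with LIF and inhibitors of MEK and GSK3, and replicates 1 and 2 alone carried a strain label (CBA/CaJ X C57BL/6J). EpiSC (n = 4) came from 1 line kept in Activin A and bFGF. kEpiSC (n = 2) was a stable derivative that overexpressed Klf4 from a constitutive CAG promoter and carried an Oct4-GFP reporter. The primed to naive transition (PNT) was started by moving kEpiSC into iCD1 medium, and libraries were made on days 1, 2 and 3 (n = 2 each), with parallel cultures given the c-Jun N-terminal kinase inhibitor SP600125 (JNKi, n = 2, 3 and 2, with no dose in the labels). kiPSC (n = 2) were the induced pluripotent cells at the end of that route. In the c-Jun experiment, ESCs that were wild type (WT) or c-Jun-/- (JunKO, made with guides on both sides of the single exon) had been turned into EpiSC-like cells. These gave 1 library each of WT iEpiSC, WT kiEpiSC, JunKO iEpiSC and JunKO kiEpiSC. Of these lines only kiEpiSC was labelled as overexpressing Klf4. The kiEpiSC of both genotypes were then held in iCD1 for 3 days without or with JNKi (n = 2 for each genotype and medium). All PNT libraries therefore carried the Klf4 transgene, as did their kEpiSC starting cells, and Klf4 was at 36.3 to 62.6 TPM in all 4 EpiSC-like libraries of the c-Jun experiment, the iEpiSC ones included.

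Hox genes encode homeodomain transcription factors that give cells of the embryo their position along the head to tail axis. Within a cluster the genes lie in the order of that axis, and in the embryo they are switched on in the same order, from the paralogues that act in the hindbrain to those that act in the trunk and then the tail and limb ends, a rule called collinearity. In pluripotent cells the clusters are classic targets of Polycomb repression, and Wnt, FGF, retinoic acid and the Cdx factors are known to open them as the posterior body is laid down. Hox proteins bind DNA together with TALE homeodomain partners of the Pbx, Meis and Pknox families.

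On the mm10 build, the member genes span chr6:52162417-52260880 for HoxA (98464 bases, transcribed from the minus strand), chr11:96194316-96368256 for HoxB (173941 bases, plus strand), chr15:102921103-103036852 for HoxC (115750 bases, plus strand) and chr2:74668310-74765142 for HoxD (96833 bases, plus strand). RefSeq promoter windows on GRCm38.p6 were found for 22 of the 38 members, in 24 windows, 2 members having a pair of them. The sequences shown belong to members on which the results turn. Hoxb1 was the most abundant member on day 1 and then fell. Hoxa7 and Hoxb8 are central members, of which the second was the most abundant of its class. Hoxa9 was the posterior member with the largest change on day 2. Each is the part of the 250 bases before the RefSeq start that comes ahead of any annotated exon, written 5′ to 3′ on the gene's strand. The Hoxa7 window overlaps the annotated Hoxa7 gene and an exon of it, so that only its first 112 bases are shown and they do not reach the RefSeq start. Capitals mark letters of a searched motif, read on either strand.
Hoxb1, chr11:96365508-96365751, plus strand, TGATNNAT in capitals: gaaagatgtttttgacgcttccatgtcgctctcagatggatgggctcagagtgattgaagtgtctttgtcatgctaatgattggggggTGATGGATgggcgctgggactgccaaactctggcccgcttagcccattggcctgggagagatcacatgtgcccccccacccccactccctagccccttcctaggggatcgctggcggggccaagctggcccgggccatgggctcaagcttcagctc
Hoxa7, chr6:52218712-52218823, minus strand, TTTATG in capitals: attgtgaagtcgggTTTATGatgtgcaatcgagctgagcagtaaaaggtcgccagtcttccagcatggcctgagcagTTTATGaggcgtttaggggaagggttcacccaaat
Hoxb8, chr11:96281655-96281904, plus strand, TTTATG on both strands and TGATNNAT on the other strand in capitals: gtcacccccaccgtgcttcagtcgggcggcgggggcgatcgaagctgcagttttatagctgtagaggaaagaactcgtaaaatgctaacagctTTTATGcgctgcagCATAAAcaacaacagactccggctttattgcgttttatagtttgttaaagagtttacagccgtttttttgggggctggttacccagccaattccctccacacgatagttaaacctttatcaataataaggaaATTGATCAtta
Hoxa9, chr6:52227371-52227620, minus strand, within the annotated gene and outside its exons, no searched motif: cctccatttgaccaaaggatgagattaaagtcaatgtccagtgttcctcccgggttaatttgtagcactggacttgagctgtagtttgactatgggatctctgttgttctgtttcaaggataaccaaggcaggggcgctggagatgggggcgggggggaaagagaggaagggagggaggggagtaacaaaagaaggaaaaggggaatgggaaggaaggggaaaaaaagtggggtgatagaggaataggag

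The 4 motifs were TTTATG, the core letters bound by Cdx factors, CTTTGA (TCF/LEF), TGATNNAT (a PBX and HOX pair) and TGANTCA (AP-1, the family of c-Jun). TTTATG was present in 5 of the 24 member windows (20.8%), those of Hoxa7, Hoxb8, Hoxd3, Hoxd4 and Hoxd11, and in 10.8% of all 32851 windows of this length. CTTTGA was present in 3 member windows (12.5%) and 13.8% of all windows, TGATNNAT in 4 (16.7%) and 7.7%, and TGANTCA in 1, that of Hoxd11 (4.2%), and 6.7%. These are counts of letters in short windows and not of bound sites.

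Library totals ranged from 2.165 to 15.945 M expected counts and were highest in kEpiSC (15.755 to 15.945), and the members took between 1.55 and 1939 CPM (counts scaled to the library total) per library. Levels are given as TPM, which is scaled by transcript length and so allows comparison between genes, and tests used counts. Zfp42, a naive marker, was at 275 to 419 TPM in ESC and at 0 to 6.92 in EpiSC, and Fgf5, a primed marker, was at 0 in ESC and at 61.8 to 169 in EpiSC. Jun was at 5.01 to 14.6 TPM in the JunKO libraries and at 40.4 to 240.4 in the WT ones, and Klf4 was at 65.2 to 103 in kEpiSC against 0.52 to 1.94 in EpiSC. ESC replicates 1 to 4 differed from all other libraries in the gap between annotated and effective transcript length (73.5 bases, against 133 to 192). Within ESC, this property and the naive state can be told apart only through replicate 5, where the gap was 176. In kiPSC, which are naive too, it was 160 and 161. JunKO kiEpiSC JNKi replicate 2 and JNKi day 1 replicate 1 each had far fewer Hox counts than their partner, and EpiSC replicate 4 had far more, as given beside the results they touch. Nothing in the labels says that replicates were separate cultures, so the p-values may measure technical spread alone.

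**Figure D1:**
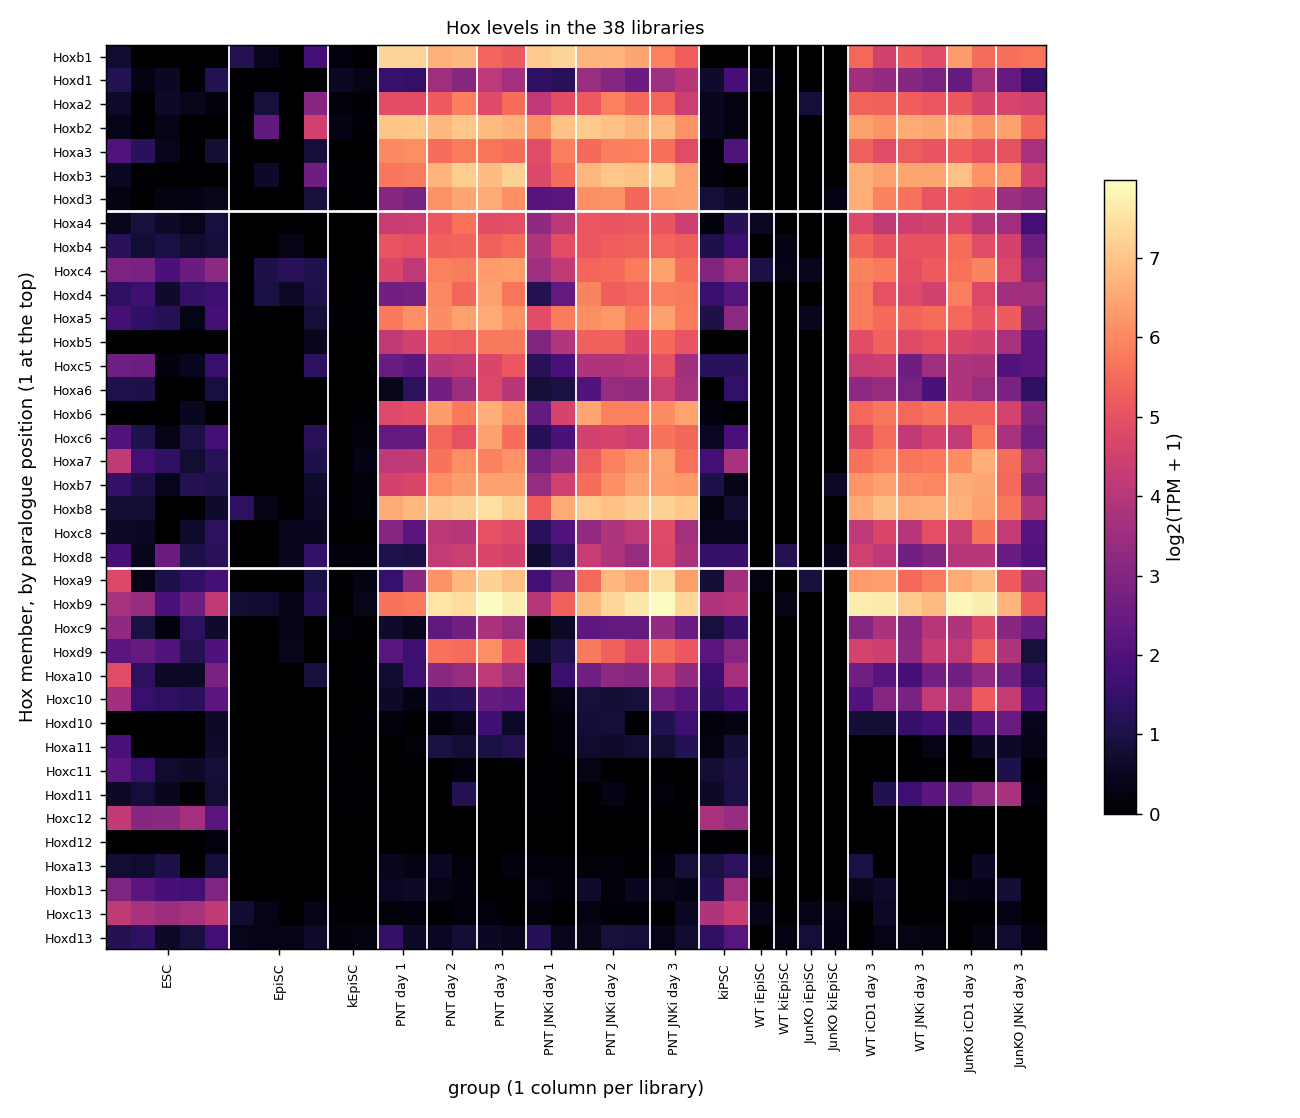
Heat map of log2(TPM + 1) for the 38 Hox members (rows, paralogue position 1 at the top, white lines between the anterior, central and posterior classes) in the 38 libraries (columns, grouped as labelled). Positions 1 to 9 are mostly bright in the day-2 and day-3 libraries. On day 1 several of them are still dim, such as Hoxa6, Hoxc9, Hoxd1 and Hoxd8. They are dark in most primed libraries, EpiSC replicate 4 being brighter at Hoxb2, Hoxa2 and Hoxb3. In contrast, Hoxc12, Hoxb13 and Hoxc13 are bright only in ESC and kiPSC.

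To ask what the clusters did when primed cells entered iCD1, day 1 was compared with kEpiSC. Hox transcripts were nearly absent from kEpiSC and abundant 1 day later, with anterior and central members highest. Summed TPM over the 7 anterior members went from at most 1.02 in kEpiSC to 438 and 444 on day 1, over the 15 central members to 329 and 358, and over the 16 posterior members to 59.2 and 66.7. Of 33 members that passed the filter on low counts, 30 rose and none fell in edgeR's quasi-likelihood test (adjusted p under 0.05), where 46.3% of all genes tested were called, 23.2% as higher and 23.1% as lower. The other 5 members, Hoxa11, Hoxa13, Hoxc11, Hoxd11 and Hoxd12, had at most 3 counts over the day-1 libraries and were not tested. Since most members passed the filter through the PNT libraries, the count is a description of those and not a test of the family. In bulk RNA, more cells of a type and more RNA per cell cannot be told apart.

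Among anterior members, which pattern the hindbrain and pharyngeal arches, Hoxb1, the gene of rhombomere 4 identity, was at 0.17 and 0 TPM in kEpiSC and at 156 and 155 on day 1. It was the most abundant member on that day, at a ratio of 1620.2 (95% counting interval 554 to 7861) to kEpiSC (adjusted p = 6.88e-11). Hoxb2 was next, at 0.22 and 0.07 and then 128 and 130.4 TPM, a log2 difference of 9.55 ± 0.44 (SE, adjusted p = 3.68e-10). Hoxa3, which is needed for the thymus and parathyroid, had no count in either kEpiSC library and reached 64.9 and 67.3 TPM, at least 872-fold higher when kEpiSC is set at the 3 counts that a count of 0 allows over the group (adjusted p = 1.62e-07). In contrast, the HoxD anterior members were low on day 1, Hoxd1 at 1.96 and 1.73 and Hoxd3 at 7.37 and 5.93 TPM, although both rose. The log2 difference of Hoxd1 was 2.22 ± 0.63 (SE, adjusted p = 0.00913), and Hoxd3 stood at a ratio of 265 (95% counting interval 46.8 to 10540.4). The Hoxd1 call was lost without kEpiSC replicate 2.

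All 15 central members, which pattern the neck and trunk, were called higher than kEpiSC on day 1. Hoxb8 was the most abundant of them, at 0.04 and 0.11 TPM in kEpiSC and 92.5 and 109 on day 1, a ratio of 1449.6 (95% counting interval 401 to 11980.0). Hoxa5, a gene of the lung and the cervical and upper thoracic vertebrae, followed at 53.1 and 69.1 TPM. Hoxb4, Hoxc4 and Hoxb5 had no count in kEpiSC and were at least 425-fold, 219-fold and 194-fold higher on day 1. The central members of HoxC and HoxD other than Hoxc4 had means of at most 5.59 TPM, the highest single library being Hoxc8 at 7.16, and Hoxd8 was at 1.12 and 1.02.

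Among posterior members, Hoxb9 stood alone, at 0 and 0.32 TPM in kEpiSC and 49.2 and 52.5 on day 1 (log2 difference 8.10 ± 0.65, SE, adjusted p = 1.17e-07). The next was Hoxa9, whose day-1 libraries differed at 1.92 and 7.87 TPM (log2 difference 4.62 ± 1.18). Hoxc12 had no count in kEpiSC or on any PNT day, Hoxc13 differed by 2.01 ± 1.32 (adjusted p = 0.226) and Hoxd10 by 0.64 ± 1.93 (adjusted p = 0.813). The calls on Hoxa10, Hoxb13, Hoxc9, Hoxc10, Hoxd13 and the central member Hoxa6, all with at most 25 counts over both day-1 libraries, were lost when single day-1 or kEpiSC libraries were left out, and the count of members that rose was then 24 to 26.

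**Figure D2:**
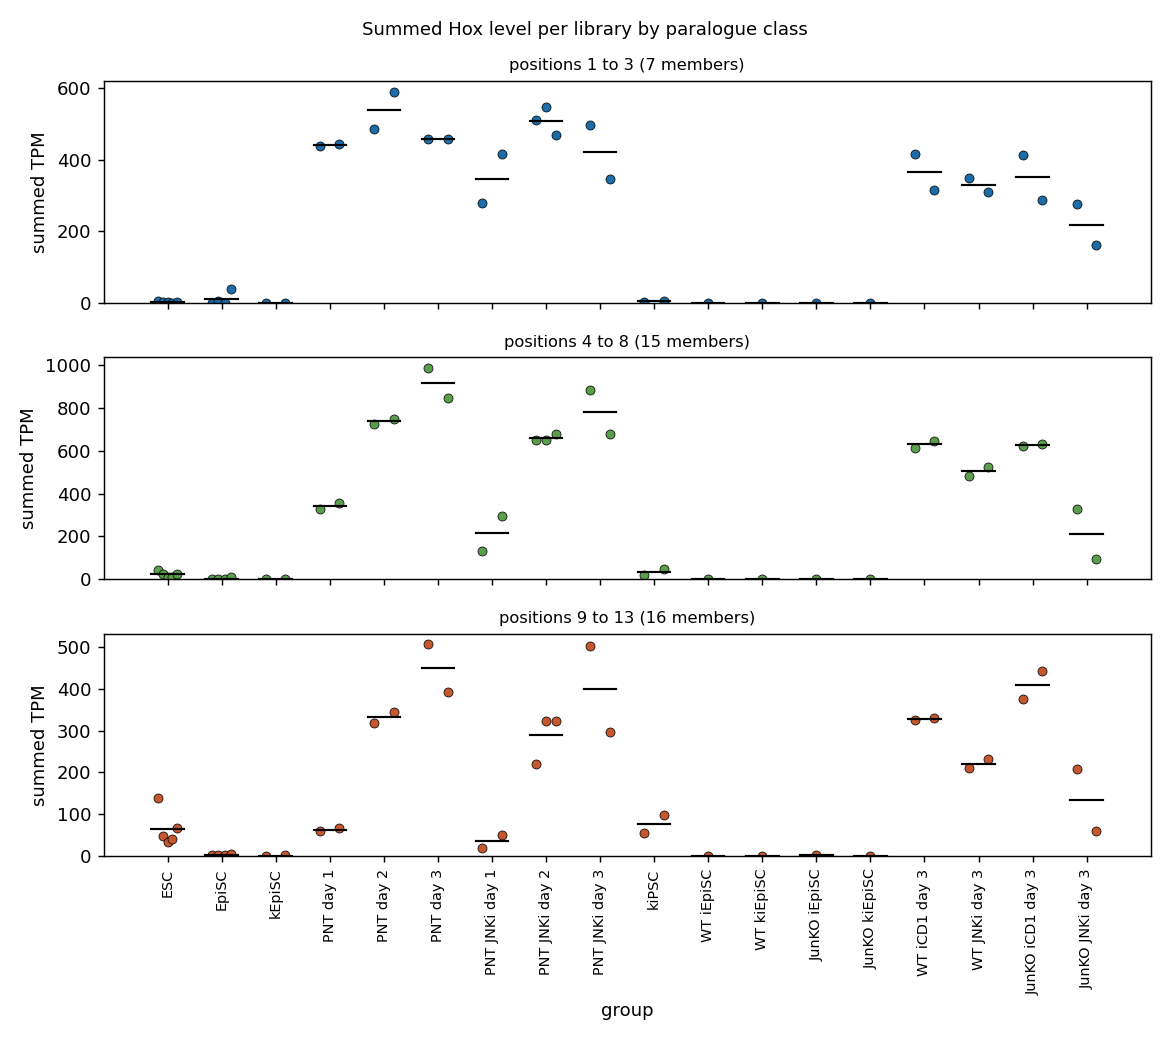
Summed TPM per library (points) and group mean (bars) for the anterior, central and posterior classes in each group, on separate linear axes from 0. Anterior sums are 438 and 444 on day 1 and 459 and 458 on day 3, central sums go from 329 and 358 to 984 and 843, and posterior sums from 59.2 and 66.7 to 506 and 392.5.

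Between day 1 and day 2 most central members rose, with a part of the anterior and posterior ones. The median log2 difference was 0.71 over the anterior, 1.54 over the central and 1.86 over the posterior members tested. Of the 33 members tested 20 rose and none fell, against 7.1% of genes tested that rose and 9.38% that fell. These were 3 of 7 anterior members (Hoxb3, Hoxd1 and Hoxd3), 12 of 15 central members and 5 of the 11 posterior members tested (Hoxa9, Hoxa10, Hoxb9, Hoxc9 and Hoxd9). Hoxa9 was at 1.92 and 7.87 TPM on day 1 and 69.9 and 109 on day 2, and its log2 difference of 4.24 ± 0.59 (SE, adjusted p = 0.000122) was the largest. Hoxd9 followed, from 3.48 and 2.13 to 47.9 and 45.4 TPM (log2 difference 4.09 ± 0.45), and Hoxc9, a determinant of thoracic motor columns, from 0.60 and 0.38 to 4.04 and 5.53 (log2 difference 3.30 ± 0.62). The day-1 and day-2 libraries of these 3 genes did not overlap, which 2 libraries a day can do without a change. In contrast, Hoxb2 was at 128 and 130.4 TPM on day 1 and 112 and 129 on day 2 (log2 difference -0.05 ± 0.23, SE, adjusted p = 0.918).

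The central members that rose on day 2 spanned a wide range. Hoxa7, whose promoter window holds the Cdx letters at a pair of places, was at 16.7 and 17.3 TPM on day 1. It was at 49.9 and 66.6 on day 2 and 59.5 and 69.8 on day 3 (log2 difference 1.93 ± 0.45 between the first of these days and the next). Hoxc6, a gene of the brachial spinal cord, was at 4.21 and 4.44, 42.6 and 30.8 and 83.2 and 45.99 TPM on the 3 days, with the largest change of the central HoxC genes on day 2 (log2 difference 3.10 ± 0.39). Hoxb8, at 92.5 and 109 TPM on day 1 and 131 and 146 on day 2, was not called (log2 difference 0.39 ± 0.29, SE, adjusted p = 0.404), nor were Hoxa5 and Hoxb4. The calls on Hoxa4, Hoxa6, Hoxa7, Hoxa10, Hoxb5, Hoxb6, Hoxc4 and Hoxc8 were lost when 1 or more of the 4 libraries was left out in turn.

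HoxD genes of all 3 classes rose on day 2. Hoxd3, an anterior gene that shapes the first neck vertebra, was at 7.37 and 5.93 TPM on day 1 and 71.2 and 89.02 on day 2 (log2 difference 3.59 ± 0.28, SE, adjusted p = 6.1e-07). Hoxd4 was at 5.39 and 5.79 and then 62.4 and 42.3 TPM (log2 difference 3.27 ± 0.37), and Hoxd8 at 1.12 and 1.02 and then 18.03 and 20.3 (log2 difference 3.97 ± 0.39). The median log2 difference was 3.27 over 7 HoxD members, 1.71 over 8 HoxC, 1.51 over 8 HoxA and 0.71 over 10 HoxB, beside -0.01 over all genes tested. By cluster, 5 members were called in each. Hoxa3, at the same position as Hoxd3, was at 64.9 and 67.3 TPM on day 1 and 46.4 and 54.8 on day 2, a difference that was not called (log2 difference -0.36 ± 0.39, SE, adjusted p = 0.595). Without day-1 replicate 2 the number of members that rose was 12, without any 1 of the other libraries compared 14 to 16.

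From day 2 to day 3 Hoxb1 alone was called. It was at 103 and 112 TPM on day 2 and 41.7 and 36.2 on day 3, so that it fell by 1.57 on the log2 scale (SE 0.19, adjusted p = 0.000205), where 6.13% of genes tested rose and 6.1% fell. Its day-1 to day-2 difference of -0.49 ± 0.18 had missed the threshold (adjusted p = 0.0835). At an unadjusted p under 0.05 there were 4 members higher and 1 lower, where 27.1% of all genes passed. Hoxb9 was at 251 and 210.4 TPM on day 3 and had the highest level of the family, followed by Hoxb8 at 174 and 140.0 and Hoxa9 at 149.6 and 122. Against kEpiSC, a group that this comparison shares with the day-1 one, 29 of 33 members were higher on day 3 and none lower, against 25.2% and 25.4% of genes. Those 29 were all 7 anterior members, all 15 central members and 7 of the 11 posterior members tested. As on day 1, most members passed the filter through the PNT libraries, so this count too only describes those.

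Levels were lower behind position 9. At position 10, Hoxa10, which sets the rib-free lumbar region, was at 0.65 and 2.09 TPM on day 1, 7.71 and 9.74 on day 2 and 16.5 and 10.9 on day 3, and its day-3 call against kEpiSC held in each alternative (adjusted p = 4.4e-05), at a ratio of 415 (95% counting interval 73.5 to 16498). Hoxc10 was at 4.31 and 3.92 TPM on day 3 and had no count in kEpiSC, at least 38.2-fold higher on day 3, a call that also held in each. Hoxd10 was at 2.28 and 0.49 TPM on day 3 and was called higher than kEpiSC (adjusted p = 0.00447), at a ratio of 40.8 (95% counting interval 6.33 to 1709). This call was lost without kEpiSC replicate 1 or day-3 replicate 1.

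At positions 11 to 13 no member reached 2 TPM in a PNT library without JNKi. Hoxa11 was at 0 and 0.11 TPM on day 1, 0.92 and 0.72 on day 2 and 0.99 and 1.25 on day 3. Hoxd13 was at 1.82 and 0.54, 0.44 and 0.72 and 0.46 and 0.35 TPM and Hoxb13 at 0.43 and 0.51, 0.25 and 0.14 and 0 and 0, so that their highest day was the first, on at most 25 counts. Hoxa13, Hoxc11, Hoxc12, Hoxc13, Hoxd11 and Hoxd12 had at most 5 counts over the libraries of any of the 3 days. Of these Hoxc12 and Hoxc13 passed the filter, through kiPSC, and were not called on any PNT day.

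The course of the rise was described by the day-1 level as a percent of the day-3 level. Each level is a mean of 2 libraries, for the 27 members whose highest PNT mean reached 5 TPM. A fall after day 1, as in Hoxb1, also raises this share. All anterior and central members were already called on day 1, the first day sampled, so the share shows no order of onset. The median was 79.2% over 7 anterior, 26.3% over 15 central and 5.5% over 5 posterior members. Hoxb1 stood at 398%, Hoxa3 at 136% and Hoxb2 at 119%, that is, above their own day-3 level on day 1. Hoxa2, Hoxb4, Hoxa5, Hoxa4 and Hoxb8 followed at 79.2%, 75.2%, 73.7%, 67% and 64.1%, whereas Hoxa9, Hoxc9, Hoxa6 and Hoxd8 were at 3.6%, 4.3%, 4.4% and 4.5%. Within each cluster the share was lower toward the posterior end, with Spearman's rho of -0.833 in HoxA (8 genes), -0.8 in HoxB (9), -0.7 in HoxC (5) and -0.8 in HoxD (5), as a description over genes that share the same 4 libraries. The clusters also differed as wholes, with medians of 46.6% in HoxA, 40.3% in HoxB, 14% in HoxC and 8.2% in HoxD. Thus the anterior HoxD genes Hoxd1 (13.2%) and Hoxd3 (8.2%) were at lower shares than Hoxb9 (22%), and position alone did not order genes of different clusters.

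**Figure D3:**
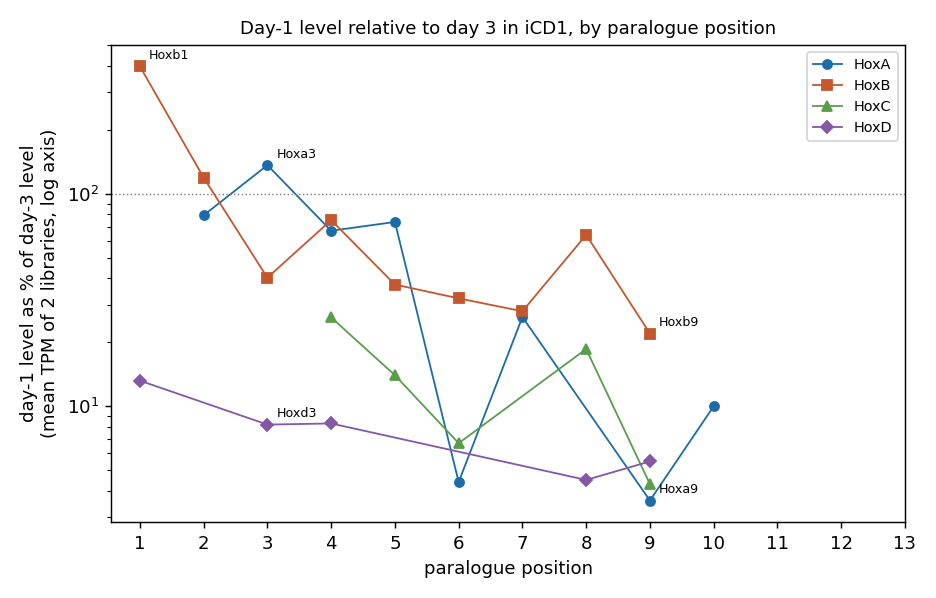
Day-1 level as a percent of the day-3 level in iCD1 (mean TPM of 2 libraries, log axis) against paralogue position for 27 members, with 1 line and symbol per cluster and a dotted line at 100%. Each line ends lower than it starts. Steps up lie at Hoxa3, Hoxa5, Hoxa7, Hoxa10, Hoxb4, Hoxb8, Hoxc8, Hoxd4 and Hoxd9. The HoxD line lies lowest at positions 1, 3 and 4.

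Genes that act on Hox clusters were looked at in the same comparisons. Of 14 tested genes of the posterior growth zone, the tail-end tissue that builds the trunk, 13 rose on day 1 and none fell. Of all genes, 23.2% rose and 23.1% fell. Cdx1 and Cdx2, caudal-type homeodomain factors that act on Hox clusters, went from 0.07 to 220.0 TPM (log2 difference 11.22 ± 0.70) and from 0.18 to 289.9 (log2 difference 10.43 ± 0.53), and Msgn1, a factor of presomitic mesoderm, from 0.14 to 291 (log2 difference 10.39 ± 0.61). Later, 8 of the 14 were lower on day 2 than on day 1 (9.38% of all genes) and 9 lower on day 3 than on day 2 (6.1%). T (brachyury) fell by 2.47 on the log2 scale on day 2 and Tbx6, a paraxial mesoderm factor, by 4.4 on day 3, while Gdf11, a ligand that sets the trunk to tail switch, rose (log2 difference 1.36 ± 0.30 on day 2). Summed TPM over 8 markers of presomitic mesoderm and caudal epiblast (T, Tbx6, Msgn1, Cdx1, Cdx2, Cdx4, Nkx1-2 and Wnt3a, which are genes of the growth zone list too) was 3219 and 3375 on day 1, 991 and 887 on day 2 and 354 and 364 on day 3, against 50.6 to 66.2 in kEpiSC, and the part of such cells in the Hox levels was not tested. Naive markers (8 genes) summed to 39.3 to 90.6 TPM over the PNT days, against 6725 to 10219 in ESC, and primed markers (7 genes) to 812 and 868 in kEpiSC, 413 and 419 on day 1 and 234 and 236 on day 3.

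Of the 9 TALE partners of Hox proteins, 4 rose and 2 fell on day 1, beside 23.2% and 23.1% of all genes. On day 3, 6 were higher and 1 lower than in kEpiSC, beside 25.2% and 25.4% of all genes. Pknox2 (log2 difference 4.05 ± 0.26) and Meis3 (log2 difference 3.13 ± 0.22) rose most on day 1, and Meis1 (log2 difference 3.23 ± 0.22) and Meis2 (log2 difference 2.28 ± 0.25) on day 2. Among 17 retinoic acid genes 8 rose and 3 fell on day 1, beside the same 23.2% and 23.1% of all genes. Aldh1a2, the enzyme that makes retinoic acid in the embryo's trunk, went from 0.10 to 77.96 TPM (log2 difference 9.28 ± 0.72), and then from 213 on day 2 to 15.1 on day 3 (log2 difference -3.97 ± 0.43). Rarb, a receptor that retinoic acid itself induces, rose on day 2 (log2 difference 3.48 ± 0.45).

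Among 29 Polycomb group genes and H3K27 demethylases, 11 fell and 6 rose on day 1, beside 23.1% and 23.2% of all genes. Cbx7, a reader of H3K27me3 in the Polycomb complex of pluripotent cells, went from 139 to 11.3 TPM (log2 difference -3.43 ± 0.23), and Phf19, an accessory subunit of PRC2, fell by 3.17 on the log2 scale, while Cbx8 rose (log2 difference 1.71 ± 0.52). Of 11 trithorax genes, which counter Polycomb, 1 rose (Kmt2d, log2 difference 0.88 ± 0.14) and 3 fell, beside 23.2% and 23.1% of all genes. Among 8 tested anterior neural and hindbrain factors, Gbx2 and Egr2, factors of the hindbrain, rose (log2 difference 4.19 ± 0.19 and 3.88 ± 0.38) and Otx2, a forebrain and midbrain factor, fell by 6.39.

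Genes beside and within the clusters were counted too. Of 22 tested coding neighbours 6 rose and 8 fell on day 1, beside the 23.2% and 23.1% of all genes, with a median log2 difference of -0.15, and Evx1, the homeobox gene at the posterior end of HoxA, rose most (0.20 to 147 TPM, log2 difference 9.78 ± 0.32). Of 9 tested non-coding genes inside the clusters 7 rose and none fell. Hoxaas3 went from 0 to 115 TPM on day 1, and Hoxb5os, at 7.21 TPM on day 1, reached 133 on day 2 (log2 difference 4.20 ± 0.44). The strand of counting was not given in the sources used here and 15 of the 38 members share exon sequence with another gene, so reads of a Hox gene and of a transcript that overlaps it may not be separated.

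At the end of the route, each member at positions 1 to 9 was lower in kiPSC than on PNT day 3. Compared with PNT day 3, 27 of 33 members tested were lower and 4 higher, against 57.9% of genes called, 28.6% as lower and 29.3% as higher. Most of the 33 passed the filter through the PNT libraries, so the number lower describes those and is no test of the family. All 7 anterior and 15 central members were lower, as were Hoxa9, Hoxb9, Hoxc9, Hoxd9 and Hoxd10. Hoxb1 and Hoxb5 had no count in either kiPSC library, at least 188-fold and 236-fold lower than on day 3. Hoxb3 went from 115 and 147 to 0.13 and 0 TPM, a ratio of 1241 (95% counting interval 343 to 10256), and Hoxb6 and Hoxb8, the other members with the largest differences, from 85.8 to 0.08 and from 157 to 0.42 in their means. Hoxb9 fell less, from 251 and 210.4 to 13.7 and 14.97 TPM (log2 difference -3.99 ± 0.40, SE, adjusted p = 5.23e-07).

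In contrast, the members that were higher in kiPSC all lay at the tail end. Of these, Hoxb13, Hoxc12 and Hoxc13 passed the filter through kiPSC, where they were high, so their number supports nothing about position. Hoxc13, a gene of hair and nail, was at 0.12 and 0 TPM on day 3 and 13.8 and 19.4 in kiPSC, a ratio of 247 (95% counting interval 44 to 9791). Hoxc12 was at 0 on day 3 and 12.2 and 9.32 in kiPSC (at least 21.5-fold higher, a call that DESeq2 did not make), and Hoxb13, a gene of the tail and prostate, at 0 and then 1.37 and 10.7 (at least 22.9-fold). Hoxd13, a gene of the digits and urogenital tract, was at 0.46 and 0.35 and then 1.63 and 3.49 TPM (log2 difference 2.67 ± 0.77, SE, adjusted p = 0.00746), and this call was lost without PNT day-3 replicate 2 or kiPSC replicate 2. The Hoxd10 call was lost in DESeq2, in a fit of all 38 libraries, and without day-3 replicate 1 or either kiPSC library. Hoxa10 (log2 difference -0.90 ± 0.68, SE, adjusted p = 0.274) and Hoxc10 (log2 difference -0.86 ± 0.48, SE, adjusted p = 0.14) missed the threshold. Among the TALE partners 7 of 9 were lower in kiPSC, beside 28.6% of all genes. Meis1 fell most (log2 difference -5.21 ± 0.26).

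**Figure D4:**
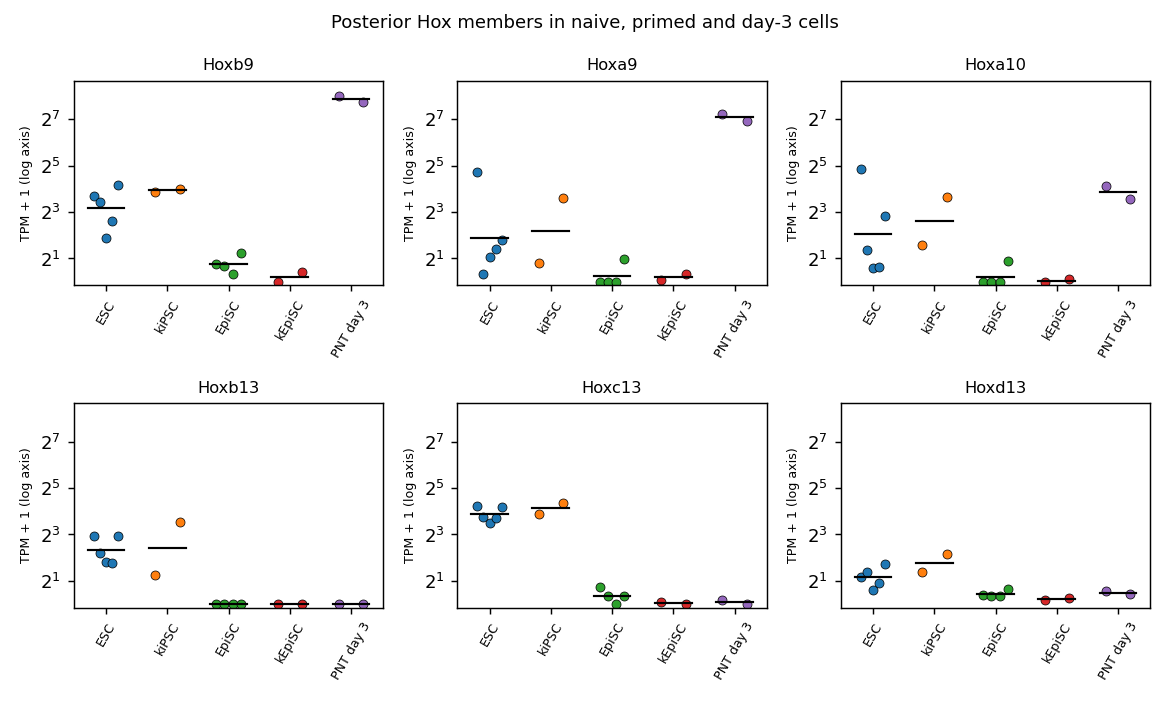
TPM + 1 on a log axis for 6 posterior members in ESC, kiPSC, EpiSC, kEpiSC and PNT day 3, with 1 point per library and a bar at the mean of the logs. Hoxb9 and Hoxa9 are highest on PNT day 3, whereas Hoxb13, Hoxc13 and Hoxd13 are highest in ESC and kiPSC.

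The long-kept naive and primed cells, ESC and EpiSC, were compared next, and Hoxc12, Hoxc13 and Hoxb13 were again on the naive side. The comparison allowed a test of only 14 of the 38 members, as the rest had too few counts, and 13 of these were higher in ESC and 1 lower, where 50.9% of genes were called, 27.1% as higher and 23.8% as lower. The 14 passed the filter mostly through ESC, so the count supports nothing about the family. By position, 9 of the 13 higher members were posterior (Hoxa9, Hoxa10, Hoxb9, Hoxb13, Hoxc10, Hoxc12, Hoxc13, Hoxd9 and Hoxd13) and 4 central (Hoxa5, Hoxa7, Hoxc4 and Hoxc5). Of the members too low to test, Hoxc11 was at 3.60, 1.97, 0.64, 0.52 and 0.80 TPM in ESC and had no count in EpiSC.

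Hoxc13 was at 17.4, 12.5, 10.4, 12.2 and 17.3 TPM in the ESC libraries and at 0.65, 0.28, 0 and 0.29 in the EpiSC ones, with no overlap (log2 difference 5.48 ± 0.50, SE, adjusted p = 2.04e-06). Hoxc12 was at 17.9, 7.55, 7.77, 11.7 and 3.47 TPM in ESC and had no count in EpiSC, at least 15.4-fold lower there. Hoxb13 was at 6.58, 3.59, 2.52, 2.39 and 6.68 in ESC and also had no count in EpiSC (at least 19.2-fold). ESC replicate 5, the one with the transcript-length gap of the other libraries, was the highest of the ESC libraries for Hoxb13, the next to highest for Hoxc13 and the lowest for Hoxc12. Hoxb9 was at 12.02, 9.66, 2.66, 5.11 and 17.2 TPM in ESC and 0.71, 0.61, 0.26 and 1.37 in EpiSC (log2 difference 3.54 ± 0.72, SE, adjusted p = 0.0012).

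Hoxc10, a lumbar motor neuron gene, was at 11.1, 1.94, 1.58, 1.39 and 3.54 TPM in ESC and had no count in EpiSC (at least 13.4-fold). Hoxd9 was at 3.61, 4.33, 3, 1.24 and 2.92 in ESC against 0, 0, 0.32 and 0 in EpiSC, a ratio of 35.7 (95% counting interval 6.24 to 1426), and Hoxc4 at 6.33, 5.98, 2.81, 4.81 and 8.13 against 0, 1.06, 1.39 and 1.09 (log2 difference 2.62 ± 0.55, SE, adjusted p = 0.00181). The calls on Hoxc4, Hoxb9, Hoxb13, Hoxc10, Hoxc12, Hoxc13 and Hoxd9 held in each alternative that tested them. Those on Hoxa5, Hoxa7, Hoxa9, Hoxa10 and Hoxd13 were lost in 4 to 7 alternatives each and that on Hoxc5 in limma. ESC replicate 1 stood apart in 3 of these genes, where Hoxa7, Hoxa9 and Hoxa10 were at 17.4, 25.5 and 28.1 TPM while their medians over the 5 libraries were 1.6, 1.69 and 1.54. That library also had the highest sum over the caudal epiblast markers (185 TPM, against 38.7 to 87.7 in the other 4), with Cdx1 at 133 TPM against 29.6 to 50.2. The part of such cells was not tested. Without ESC replicate 1 there were 10 calls and the Hoxa10 call was lost, without EpiSC replicate 2 there were 8 and without EpiSC replicate 3 there were 9.

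Hoxb2 was the one member lower in ESC, at a mean of 0.11 TPM against 6.46 (adjusted p = 0.00417), where EpiSC stood at a ratio of 71.4 (95% counting interval 18.9 to 603) to ESC. The call was lost in limma and with ESC replicate 5 as the only ESC library. Without EpiSC replicate 2 or 4, or with only ESC and EpiSC in the fit, Hoxb2 had too few counts to be tested and no member was called lower. Its EpiSC libraries were at 0, 4.16, 0 and 21.7 TPM, so that 2 of the 4 had none and replicate 4 carried most of the mean. EpiSC replicate 4 was also highest for Hoxa2 and Hoxb3, at 7.44 and 5.05 TPM, and its anterior sum was 38.3 TPM against 0 to 5.89 in the other 3. The fibroblast markers, which would mark feeder cells, summed to 144 TPM in that library against 19 to 77.3 in the other EpiSC libraries, and to 6.25 to 489 in ESC, where the highest was replicate 5. Hoxb1 had 1 count over the ESC libraries and was not tested.

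In primed medium Hox levels were low with and without the Klf4 transgene, at a summed 1.68 and 2.37 TPM in kEpiSC and 4.04 to 52.9 in EpiSC. In kEpiSC against EpiSC 1 of 14 members tested was called, Hoxc4, with no count in kEpiSC and 0, 1.06, 1.39 and 1.09 TPM in EpiSC (at least 9.78-fold lower, adjusted p = 0.0306), against 1.26% of genes called, 0.941% as higher and 0.323% as lower. This call was lost without kEpiSC replicate 1 or 2 or without EpiSC replicate 2, 3 or 4. At an unadjusted p under 0.05, 3 members were lower, where 14.5% of genes passed in either direction. In kiPSC against ESC, with ESC shared with the comparison above, edgeR called none of the 14 members at 0.144% of genes called (0.0934% higher, 0.0503% lower), none passed an unadjusted p of 0.05, and DESeq2 and limma also called 0. Hoxc13, the most abundant member in both groups, differed by 0.26 ± 0.37 on the log2 scale between kiPSC and ESC.

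JNKi was added during the PNT to ask whether blocking the kinase upstream of c-Jun changes the route. No Hox member was called on any day in the main fit, while without the filter on low counts 4 were called lower on day 1. On day 1 edgeR called 0 of 33 members and 0% of genes, DESeq2 and limma called 0, and 7 members were lower at an unadjusted p under 0.05, which 1.82% of all genes tested passed in either direction. The median member difference on day 1 was -0.68 on the log2 scale, or -0.71 with low-count members at their ratio, beside 0 over all genes, and 31 of 33 members were lower in their fitted value. The libraries differed much: members took 443 CPM in JNKi day 1 replicate 1 and 789 in replicate 2, against 866 and 881 without JNKi. Hoxd9 had the largest difference, at 3.48 and 2.13 TPM without and 0.55 and 1.10 with JNKi (log2 difference -1.70 ± 0.69, SE). Hoxb6, chosen after its values were seen, was at 26.3 and 28.9 without and 4.33 and 23.5 with JNKi, so that most of its difference came from replicate 1. Hoxb1, the most abundant member, was at 156 and 155 TPM without and 136 and 156 with JNKi (log2 difference -0.10 ± 0.18).

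On day 2 edgeR called 0 members at 0.00672% of genes, with a median of -0.16 and 1 member lower at an unadjusted p under 0.05 (2.89% of genes in either direction). On day 3 it called 0 members at 0% of genes, with a median of -0.15 and none at an unadjusted p under 0.05. DESeq2 and limma called 0 on both days. Hoxb9 was at 249.9 and 159 TPM on day 3 with JNKi, beside 251 and 210.4 without (log2 difference -0.15 ± 0.34), and Hoxa9 at 173 and 82.6 beside 149.6 and 122 (log2 difference -0.09 ± 0.45). The difference between the day-3 and day-1 effects was also called in 0 members and 0% of genes by edgeR and in 0 by DESeq2 and limma, with 1 member higher at an unadjusted p under 0.05 (2.28% of genes in either direction). The day-1 percent of the day-3 level had a rho of 0.968 between cultures with and without JNKi over 27 members. A p that misses the threshold does not show that levels were alike, and 2 libraries a group left an SE of 0.69 for Hoxd9 on day 1.

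The c-Jun experiment started from EpiSC-like cells in which Hox genes were again nearly silent, with 5 to 9 Hox counts per library and summed levels of 1.56 to 3.43 TPM. After 3 days in iCD1, 28 of 30 members tested were higher than in primed cells in WT (32.1% of genes called, 16.1% higher and 16.1% lower) and 30 of 30 in JunKO (29.1% called, 15.8% higher and 13.3% lower). These members passed the filter through the day-3 libraries, in which they were high, so the counts describe them and support nothing about the family. Hoxb9 was at 206 and 200.3 TPM in WT and 229.8 and 211 in JunKO on that day, and Hoxb8 at 93.3 and 118 in WT and 102 and 85.3 in JunKO. In the primed libraries no class of members summed to more than 1.93 TPM. Hoxd10 and Hoxd11 were not called in WT, with 4 and 2 counts over its day-3 libraries. The fit held a term for the iEpiSC and kiEpiSC lines, and leaving out 1 primed library then left 1 to 2 calls. Without that term, an alternative chosen after the data were seen, leaving out 1 primed library gave 27 calls in WT and 28 in JunKO.

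Loss of c-Jun alone moved no member past the threshold in the main fit. In iCD1, 3 were called higher and 1 lower without the filter on low counts, and 1 was called with a replicate block. In primed cells edgeR called 0 of 30 members at 0.357% of genes, DESeq2 and limma called 0, and none passed an unadjusted p of 0.05. In iCD1 on day 3 edgeR, DESeq2 and limma each called 0, at 1.7% of genes by edgeR, with 3 members higher and 1 lower at an unadjusted p under 0.05, a threshold that 13.1% of all genes passed. Hoxd3 was at 97.8 and 60.4 TPM in WT and 37.7 and 34.9 in JunKO (log2 difference -0.99 ± 0.30, SE, adjusted p = 0.17). Hoxb1 was at 43.3 and 22.1 TPM in WT and 79.9 and 45.2 in JunKO (log2 difference 0.99 ± 0.36, SE, adjusted p = 0.247), and Hoxc10 at 3.11 and 7.29 in WT and 11.6 and 35.4 in JunKO (log2 difference 2.19 ± 0.85, SE, adjusted p = 0.295). None of these 3 genes passed the threshold. Hoxd11, at 0 and 1.21 TPM in WT and 4.38 and 8.27 in JunKO, had an adjusted p of 0.277. Nkx1-2, a factor of the growth zone, was called higher in JunKO (log2 difference 1.47 ± 0.27, SE, adjusted p = 0.0267), and the caudal epiblast markers summed to 279 and 216 TPM in WT and to 830 and 305 in JunKO.

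With JNKi the genotypes differed in 1 member, or in 16 without the filter on low counts. Hoxd3 was at 48.6 and 32.2 TPM in WT and 10.5 and 8.44 in JunKO (log2 difference -2.17 ± 0.35, SE, adjusted p = 0.0282), against 0.626% of genes higher and 0.293% lower, and 12 members were lower at an unadjusted p under 0.05, which 16.5% of all genes passed in either direction. Hoxb5 was at 27.4 and 30.9 TPM in WT and 12.3 and 3.69 in JunKO (log2 difference -1.83 ± 0.43, SE, adjusted p = 0.0791) and Hoxb6 differed by -1.61 ± 0.41 (SE, adjusted p = 0.093), both short of the threshold. The median over the 30 members was -0.95, beside 0.01 over all genes. JunKO JNKi replicate 2 had a summed Hox level of 316 CPM and replicate 1 of 859, against 1072 and 1100 in WT with JNKi, so that Hoxb8, for example, was at 95.5 and 98.98 in WT and 51.7 and 14.4 in JunKO. Replicate 2 also had higher sums than replicate 1 over primed markers (417 against 144 TPM), neural markers (129 against 43), trophoblast markers (380 against 169) and primitive endoderm markers (114 against 43.9). Of the trophoblast sums, Krt8 alone made up 337 and 144 TPM. Sums were lower in replicate 2 over caudal epiblast (471 against 1310), naive (1195 against 1616), fibroblast (50.3 against 90.5) and blood and endothelium markers (19.3 against 42.5). Whether such cells were present, and their part in the difference, was not tested. Without JunKO JNKi replicate 1 there were 18 calls, and without replicate 2 or either WT JNKi library there were 0.

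Within a genotype, JNKi on day 3 gave no call in the main edgeR fit. Without the filter on low counts it gave 6 in WT and 20 in JunKO, all lower. With that filter, a replicate block gave some calls in both genotypes, and a fit of only the groups compared gave some in WT. In WT edgeR called 0 of 30 members at 0.484% of genes (0.333% higher, 0.151% lower), DESeq2 and limma called 0, 3 members were lower at an unadjusted p under 0.05 (13.9% of genes passed that in either direction), and the median was -0.23. Hoxd8 came nearest, at 21.7 and 16.8 TPM without and 5.41 and 6.93 with JNKi (log2 difference -1.63 ± 0.35, SE, adjusted p = 0.088). In JunKO edgeR called 0 at 0.0476% of genes (0.0317% higher, 0.0159% lower), limma 0 and DESeq2 6, 20 members were lower at an unadjusted p under 0.05 (12.6% of genes passed that in either direction), and the median was -1.6. There Hoxd3 was at 37.7 and 34.9 TPM without and 10.5 and 8.44 with JNKi (log2 difference -2.11 ± 0.35, SE, adjusted p = 0.0997) and Hoxd8 at 15.4 and 15.5 without and 4.62 and 3.05 with JNKi (log2 difference -2.23 ± 0.37, SE, adjusted p = 0.0997). Both comparisons share their libraries with those between genotypes. Members took 316 CPM in JunKO JNKi replicate 2 and 859 in replicate 1, against 1469 and 1376 in JunKO without JNKi. The difference between the genotypes' JNKi effects was called in 0 members and 0% of genes by edgeR and in 0 by DESeq2 and limma, with 6 members lower at an unadjusted p under 0.05 (5.76% of genes in either direction) and a smallest adjusted p of 0.832. Without JunKO JNKi replicate 1 the JNKi effect was called in 20 members in JunKO and the difference between genotypes in 11, and without the filter on low counts that difference was called in 9.

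**Figure D5:**
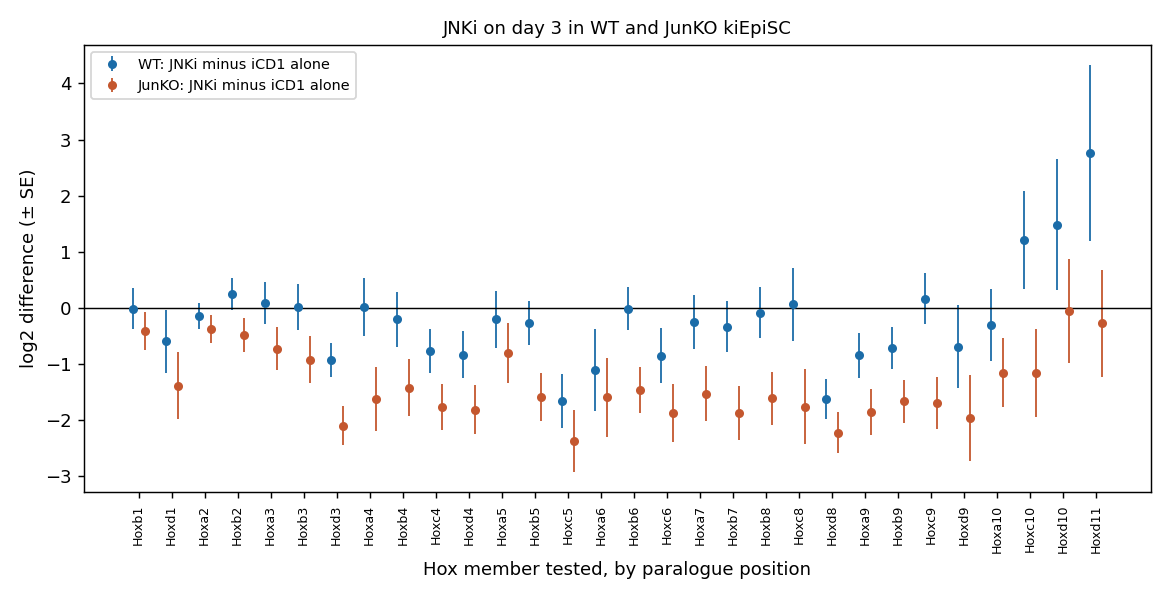
Log2 difference between JNKi and iCD1 alone on day 3 (points, with SE bars) in WT and JunKO kiEpiSC for the 30 members tested, in order of paralogue position. The JunKO point lies below the WT point for each of the 30 members, with SE bars that overlap for some of them. No member passed the test of that difference in the main fit. All members share the same libraries, and JunKO JNKi replicate 2 had far fewer Hox counts (316 CPM) than replicate 1 (859 CPM).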

How the data were processed

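Per the labels and the submitters' processing notes, reads were handled by the authors with bcl2fastq, Bowtie2 and RSEM on mm10 (no versions or gene annotation given in the sources used here), which gave per library the deposited tables of RSEM expected counts and TPM, both used here. The counting strand was not given. Gene symbols were matched for 28756 of 29267 genes. The 38 members and all gene lists were chosen with earlier results of these data known.

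Expected counts were rounded and tested with edgeR 4.0.16 (R 4.3.3, TMM scaling, filterByExpr with a minimum count of 10, quasi-likelihood F test, Benjamini-Hochberg over all genes, threshold 0.05). The fits held 13 libraries (ESC, EpiSC, kEpiSC and kiPSC, 13923 genes), 17 (kEpiSC, PNT without and with JNKi and kiPSC, 14892 genes) and 12 (WT and JunKO, 12613 genes, with a term for the iEpiSC and kiEpiSC line). SE is the log2 difference divided by the square root of F. With no count in a group, a fold is a bound at 3 counts over that group. With 1 to 3 counts it is a ratio with a 95% counting interval, which like all such intervals covers counting error only. Alternatives were DESeq2 1.42.0, limma 3.58.1 on log2(TPM + 1), other scaling, no filter or 1 CPM, replicate block, other library sets, and leaving out each library. A member was detected at 1 expected count or more. By the rule for named genes, each comparison gives in full the 6 called members of largest absolute change at most, with those highest in their class or moving against it, and names at most 4 called genes of each other list. Scripts were tested on simulated data. Python 3.11.15, pandas 2.3.3, numpy 2.4.6, scipy 1.17.1 and matplotlib 3.10.9 were used. No replicate pair in a group differed by as little as sampling noise (chi-square per degree of freedom of 4.16 or more).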

Additional observations from a re-analysis of the deposited data

Results flagged for a closer look

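In each group of 4 or 5 libraries, the highest and lowest values of a member were compared with the rest by the gap to the nearest library over the whole range, which chance alone exceeds in about 1 in 20 groups. It was exceeded for 5 of 23 items tested in ESC and 4 of 7 in EpiSC, and each set came from a single library. Members entered by their mean TPM in the group, which a single high library can raise, and the class sums hold the same genes. These counts therefore only describe the libraries and cannot be set against 1 in 20.

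In ESC, replicate 1 stood apart from the other 4 (critical ratio 0.71). Hoxa7 was at 17.4 TPM there and at 2.4 in the next library (gap ratio 0.898), Hoxa9 at 25.5 and 2.5 (0.912), Hoxa10 at 28.1 and 6.04 (0.799), Hoxc9 at 8.58 and 1.55 (0.837) and Hoxc10 at 11.1 and 3.54 (0.779).

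In EpiSC, replicate 4 stood apart from the other 3 (critical ratio 0.829). Its summed anterior level was 38.3 TPM and the next 5.89 (gap ratio 0.846), and its summed central level 10.6 and 2.9 (0.852). Hoxa2 was at 7.44 and 0.85 TPM (0.886) and Hoxb3 at 5.05 and 0.54 (0.893).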

How the results depend on the processing

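Of 164 alternatives to the counts of called members, other than leaving out libraries, 137 stayed within 1.5 times the reported count and 27 did not, and no called member changed sign in any. Only limma moved the median of all genes by over 0.1 on the log2 scale, from 0.013 to 0.129 for day 3 against day 2 and from 0 to 0.185 for day 3 against kEpiSC. For the counts that moved, the cause was not tested. The calls in ESC against EpiSC (14) were 9 with the replicate block, 6 with only these groups, 9 with ESC libraries without a strain label and 22 with all 38 libraries. In kEpiSC against EpiSC (1) they were 0 with the replicate block, with limma and with only these groups, and 4 with all 38. PNT day 2 against day 1 (20) gave 13 with all 38 libraries. Day 3 against day 2 (1) gave 4 without the count filter, 3 in limma and 4 with only these groups. JNKi on day 1 (0) gave 4 without the filter. JunKO against WT in iCD1 (0) gave 4 without the filter and 1 with the block. JunKO against WT with JNKi (1) gave 16 without the filter, 2 with the block, 2 in DESeq2 and 0 with only these groups. JNKi in WT (0) gave 6 without the filter, 2 with the block and 5 with only these groups. JNKi in JunKO (0) gave 20 without the filter, 5 with the block, 6 in DESeq2 and 1 with all 38. The difference of JNKi effects between genotypes (0) gave 9 without the filter.

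Leaving out 1 library gave 8 to 14 calls in ESC against EpiSC, 0 to 1 in kEpiSC against EpiSC, 24 to 26 in day 1 against kEpiSC, 12 to 16 in day 2 against day 1, 28 to 30 in day 3 against kEpiSC, 30 to 31 in kiPSC against day 3, 0 to 1 in JNKi on day 1, 0 to 18 in JunKO against WT with JNKi, 0 to 20 in JNKi in JunKO and 0 to 11 in the difference between genotypes. Day 3 against day 2 kept 1 call, and kiPSC against ESC, JNKi on days 2 and 3, JunKO against WT in primed cells and in iCD1, and JNKi in WT had 0 calls, in each. It gave 1 to 27 in WT and 1 to 28 in JunKO day 3 against primed cells. There the level of the missing line rests on the line term, fitted from counts near 0. With no line term, chosen after the data were seen, these were 27 and 28. Replicate numbers were shared between groups without a stated pairing, and correlations of same-numbered libraries lay between -0.055 and 0.283, so the block stands only as an alternative.

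The median number of members detected at 1 count was 28 in ESC, 9.5 in EpiSC, 16.5 in kEpiSC, 34 in kiPSC and 5 to 6 in the 4 primed libraries of the c-Jun experiment. At 5 counts it was 16, 0.5, 1, 22.5 and 0, and at 0.5 TPM it was 5 in EpiSC, 0 in kEpiSC, 3 in JunKO iEpiSC and 1 in the other 3 primed libraries. EpiSC totals were 2.165 to 2.869 M counts, and 24 members were not tested in the fit that held them.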
